A study of Mus musculus with 39 samples.

Results

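The Socs, Cish, Pim and Bcl6 group studied here comprises 10 genes of the JAK-STAT pathway: the transcription factors Stat3, Stat5a and Stat5b, the feedback inhibitors Socs1, Socs2, Socs3 and Cish, the kinases Pim1 and Pim3, and the repressor Bcl6. They were chosen by symbol, and every probe set that the platform annotation names by exactly 1 of these symbols was taken. This gave 26 probe sets of 34945 named by 1 gene, and 10 genes of 18193. The data are 39 Affymetrix arrays, with 1 sample on each, from B6C3F1 mice, which are first-generation hybrids of C57BL/6 and C3H parents. Mice kept under reduced oxygen for 2 hours (hypoxia in the sample titles) were set against mice under control conditions for 2 hours (vehicle in the titles, with the vehicle not named). The 6 groups were reduced oxygen and control livers (8 arrays each), reduced oxygen bone marrows (4 arrays) and control bone marrows (3 arrays), and reduced oxygen and control spleens (8 arrays each). No genotype beyond the strain is given. All mice were anaesthetised with ketamine and acepromazine before death, an exposure that both groups share. Marrow came from a humerus, liver from the left lateral lobe and spleen from part of a cross-section, and the labels used here give neither age nor sex.

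Cytokines and growth hormone bind receptors that carry JAK kinases, and the JAKs phosphorylate STAT proteins, which move to the nucleus and switch on their target genes. Socs and Cish genes are among the targets of STATs, and their proteins bind JAKs or receptors and shut the signal down, so their RNA is widely read as a marker of recent signalling. In liver, growth hormone acts mainly through Stat5b and interleukin 6 through Stat3. Bcl6 is known as a gene that Stat5 represses in mouse liver, and in lymphoid tissue it is the repressor that germinal centre B cells depend on. Pim kinases are short-lived serine/threonine kinases, active as soon as they are made, that promote survival and protein synthesis.

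STAT proteins bind the palindrome TTCNNNGAA, in which N is any base and which reads the same on both strands. The stretches printed next are those of the genes on which the results below turn, Cish, Bcl6, Socs3 and Pim3, from the RefSeq table of mouse build GRCm38.p6, with the palindrome in capitals. Each is 120 bases long and is written 5′ to 3′ on the gene's own strand. Bcl6 has a downstream and an upstream start.
Cish, chr9:107296559-107296678, plus strand: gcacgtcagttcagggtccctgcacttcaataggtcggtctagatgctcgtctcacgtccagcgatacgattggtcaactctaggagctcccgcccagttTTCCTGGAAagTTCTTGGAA
Bcl6 downstream start, chr16:23981344-23981463, minus strand: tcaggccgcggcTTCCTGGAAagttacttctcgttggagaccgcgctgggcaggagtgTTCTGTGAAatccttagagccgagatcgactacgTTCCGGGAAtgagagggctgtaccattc
Bcl6 upstream start, chr16:23988913-23989032, minus strand: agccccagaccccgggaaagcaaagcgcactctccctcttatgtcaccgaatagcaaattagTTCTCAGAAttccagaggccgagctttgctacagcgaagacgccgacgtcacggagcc
Socs3, chr11:117969427-117969546, minus strand: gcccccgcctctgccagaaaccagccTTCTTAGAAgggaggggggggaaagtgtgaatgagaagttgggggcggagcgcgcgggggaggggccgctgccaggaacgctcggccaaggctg
Pim3, chr15:88862074-88862193, plus strand: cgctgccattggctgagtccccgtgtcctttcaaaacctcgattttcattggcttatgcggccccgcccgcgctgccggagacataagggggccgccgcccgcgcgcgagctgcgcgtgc

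Windows of 300 bases (250 before to 50 after a start) were searched for 9 of the 10 genes; Socs2 had no entry. Cish held 2 palindromes, beginning at bases 1 and 12 counted from the start. Bcl6 held 3 at its downstream start, beginning at bases -168, -122 and -88, and 1 at its upstream start, beginning at base -118. Socs3 held 1, beginning at base -154. The windows of Socs1, Pim1, Pim3, Stat3, Stat5a and Stat5b held none. Of all 32851 such windows listed by RefSeq, 8.3% held at least 1 palindrome, 0.457% at least 2 and 0.0335% at least 3. These matches describe letters in a window and were not tested as binding sites.

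The deposited intensities were converted to log2, and each gene was represented by its brightest probe set. Liver arrays had medians between 5.21 and 5.33, bone marrow arrays between 6.22 and 6.29 and spleen arrays between 6.16 and 6.20, and no 2 arrays held identical values. The tissue labels fitted their markers: hepatocyte genes had median levels of 14.2 to 14.5 in reduced oxygen livers and 14.4 to 14.5 in control livers, and from 4.59 to 5.33 in the other tissues. Neutrophil genes stood at 14.3 to 14.5 in bone marrow. B cell genes had median levels of 9.004 to 11.5 in reduced oxygen spleens and 11.1 to 11.9 in control spleens. Reduced oxygen spleen 4 was the lowest of these, and pancreatic acinar genes were high in control spleen 5 (summed level 16.1) and reduced oxygen spleen 2 (13.6). The labels do not say whether samples came from separate mice, so p-values measure the spread between these samples, which may be partly technical.

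Pim3 rose about 4-fold under reduced oxygen in liver, the largest change among the 10 genes in the 3 tissues, and by a smaller amount in bone marrow. Bcl6 fell in bone marrow and in spleen. The other 8 genes passed the test in none of the 3 tissues. In liver 1 of the 9 genes tested was called (limma, Benjamini-Hochberg adjusted p under 0.05), against 11.1% of all 12735 genes (3.88% higher and 7.22% lower), and the median log2 change of the 9 was 0.042, against -0.034 for all genes. The replicate numbers paired the liver samples by the rule used, not by the labels. Of the 8 reduced oxygen livers, 4 correlated best with the control of their own number. With that number as a block, 2 of the 9 and 2385 of all genes were called. In bone marrow 2 of 10 were called, 1 higher and 1 lower, against 7.69% of all genes (2.76% higher and 4.92% lower), with a median of -0.088 against -0.010. In spleen 1 of 10 was called, against 19.4% of all genes (6.83% higher and 12.6% lower), with a median of 0.061 against -0.0083. Socs1 was under the dim-gene limit in liver and was not tested there.

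**Figure D1:**
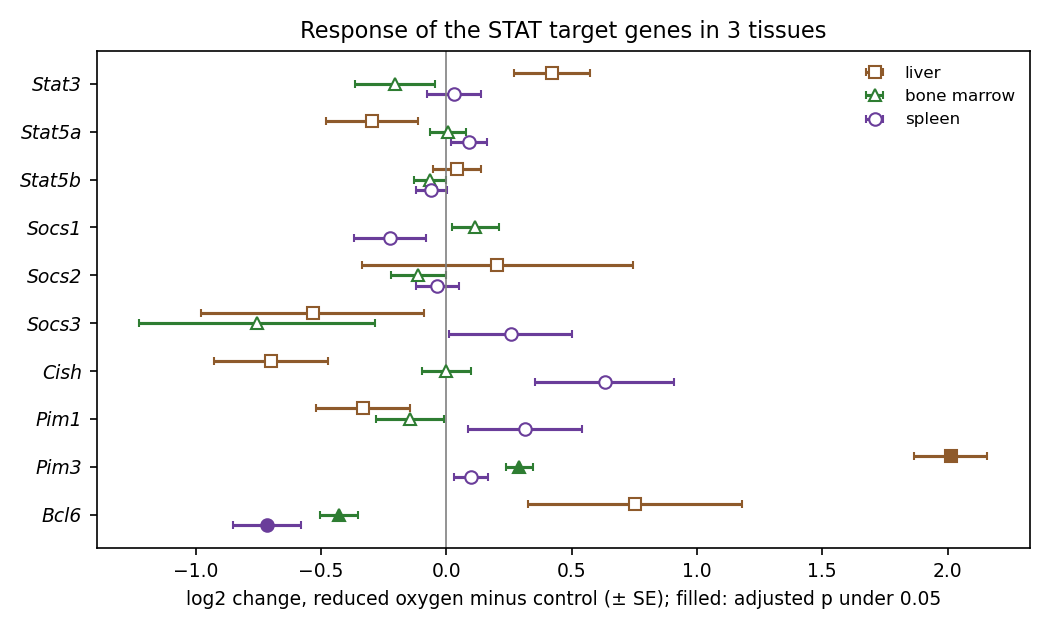
Log2 change (reduced oxygen minus control, x axis) of the 10 genes (y axis) in liver, bone marrow and spleen, with bars for the standard error; filled points passed adjusted p under 0.05 in limma. Pim3 in liver stands alone at 2.01, Pim3 in bone marrow lies at 0.29, and Bcl6 lies at -0.43 in bone marrow and -0.71 in spleen.

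Pim3, which encodes a kinase that promotes cell survival and translation, had a lowest, median and highest log2 intensity of 11.60, 12.14 and 12.34 in reduced oxygen livers, against 9.55, 10.04 and 10.50 in control livers. Every reduced oxygen liver lay above every control liver, a separation seen in 2.84% of all genes. The means were 12.04 ± 0.32 in reduced oxygen livers and 10.02 ± 0.33 in control livers (SD, n = 8 each), a log2 change of 2.01 ± 0.15 (SE), or 4.04-fold (limma, adjusted p = 1.57e-08). A second probe set rose by 2.15 (adjusted p = 6.25e-08 over all probe sets), while the third, dim at 5.65 in reduced oxygen and 5.37 in control livers, had a change of 0.28 (adjusted p = 0.128). Within the arrays numbered 1 to 4 the change of Pim3 was 2.16, and within those numbered 5 to 8 it was 1.86. In bulk tissue, a change in the number of cells of a type and a change in RNA per cell cannot be told apart.

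Neutrophil markers also moved in liver: 3 of 8 tested were called higher, with a summed level of 8.78 to 13.9 in reduced oxygen livers and 8.56 to 10.3 in control livers. In reduced oxygen livers 1, 2 and 5 the summed level was 8.78 to 8.92, within the control range, and Pim3 stood at 12.34, 11.82 and 11.60 there, above the highest control liver at 10.50. The other 5 reduced oxygen livers had summed marker levels of 11.95 to 13.9. The sum is taken on the linear scale, so the brightest markers dominate it. The median marker level was 4.93 to 5.69 in reduced oxygen and 4.91 to 5.38 in control livers. Lcn2, a listed marker, also stands in the list of Stat3 targets used below (change 3.48 in liver). The part of neutrophils in the size of the Pim3 change was not tested.

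In bone marrow Pim3 read 9.46, 9.33, 9.43 and 9.41 in the 4 reduced oxygen samples, against 9.11, 9.14 and 9.10 in the 3 control samples. The groups did not overlap, as in 20.5% of all genes with these few arrays. The change was 0.29 ± 0.054 (SE), or 1.22-fold (limma, adjusted p = 0.0164), and a second probe set rose by 0.39 (adjusted p = 0.0266 over all probe sets). The adjusted p was 0.0504 without reduced oxygen replicate 3 and 0.0519 without control replicate 3. In spleen Pim3 spanned 8.59 to 8.99 with a median of 8.90 in reduced oxygen samples, against 8.56 to 8.93 with a median of 8.76 in control samples. These groups overlapped, and the change was 0.099 ± 0.068 (adjusted p = 0.346, 95% interval -0.048 to 0.24).

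The response of Pim3 in liver exceeded that in spleen by 1.91 ± 0.16 and that in bone marrow by 1.72 ± 0.20 on the log2 scale (limma interaction, adjusted p = 9.83e-12 and 1.60e-07). Such a difference was called for 9.74% of genes between liver and spleen and for 2.81% between liver and bone marrow. Over the 16 liver arrays the genes most like Pim3 were Slc38a2 (Pearson r = 0.982), an amino acid transporter, Tnfrsf1b (r = 0.973), a receptor of tumour necrosis factor, and Snhg3 (r = 0.968), a host gene of small nucleolar RNAs. These correlations include the shift between the groups. After each group's mean was subtracted they were 0.760, 0.646 and 0.488.

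**Figure D2:**
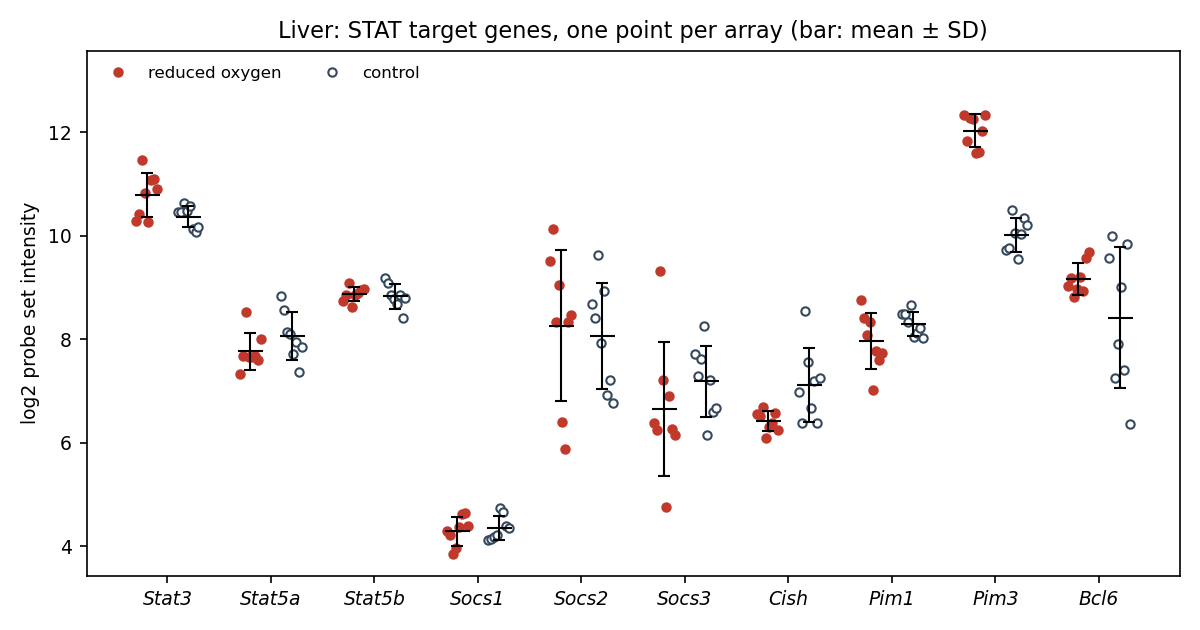
Log2 intensity (y axis) of the 10 genes in each liver array, reduced oxygen at the left and control at the right of each gene, with the mean and SD. Pim3 separates completely (11.60 to 12.34 in reduced oxygen, 9.55 to 10.50 in control livers), and the control livers are widely spread in Bcl6 and Cish.

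Pim1, the other Pim kinase of the group and a classical STAT target, did not follow Pim3. In liver its lowest, median and highest values were 7.02, 7.93 and 8.76 under reduced oxygen, against 8.02, 8.28 and 8.67 in controls. Of the 8 reduced oxygen livers 4 lay below every control liver and 1 above, and the change was -0.33 ± 0.19 (adjusted p = 0.294). Within the arrays numbered 5 to 8 it was -0.57 (adjusted p = 0.0302), and within those numbered 1 to 4 it was -0.091 (adjusted p = 0.769). In bone marrow Pim1 read 9.96, 9.79, 9.84 and 10.09 in reduced oxygen samples, against 10.38, 10.03 and 9.78 in control samples. These overlapped, with a change of -0.14 ± 0.13 (adjusted p = 0.553). In spleen it spanned 9.29 to 10.84 with a median of 9.71 under reduced oxygen, against 9.15 to 10.45 with a median of 9.47 in controls. The change was 0.31 ± 0.23 (adjusted p = 0.371), and the dimmer Pim1 probe set had one of 0.57 (adjusted p = 0.0596 over all probe sets).

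Bcl6, a transcriptional repressor, fell in spleen. Its lowest, median and highest values were 7.70, 8.08 and 8.51 in reduced oxygen spleens, against 8.33, 8.78 and 9.35 in control spleens. Of the 8 reduced oxygen spleens 7 lay below every control spleen, and only replicate 6 lay within the control range, so the groups overlapped, as they did for all 10 genes in spleen (the groups of 4.69% of all genes did not). The means were 8.06 ± 0.25 in reduced oxygen and 8.77 ± 0.33 in control spleens (SD, n = 8 each), a log2 change of -0.71 ± 0.14 (SE), or 0.609-fold (limma, adjusted p = 0.00128). A second probe set fell by 0.68 (adjusted p = 0.000477 over all probe sets), also with 7 of 8 reduced oxygen spleens below every control. Within the arrays numbered 1 to 4 the change was -0.60 (limma, adjusted p = 0.0496), and within those numbered 5 to 8 it was -0.83 (adjusted p = 0.00406).

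B cells, which use Bcl6, were among the cell types whose markers moved in spleen. Of 9 B cell markers tested 3 were called lower and none higher (median log2 change -0.52), with a summed level of 13.1 to 14.9 in reduced oxygen and 14.4 to 15.1 in control spleens. Of 10 neutrophil markers 4 were called higher (median 1.02), with a summed level of 12.9 to 16.1 in reduced oxygen and 13.2 to 14.9 in control spleens. With the B cell marker level of each array as a covariate the change of Bcl6 was -0.57 (adjusted p = 0.00745). Without reduced oxygen replicates 2 and 4 and control replicate 5, the arrays of other cell content, it was -0.66 (adjusted p = 0.00826). Both settings were chosen after seeing the data. The part of cell content in the fall of Bcl6 was not tested beyond these values. The genes most like Bcl6 over the 16 spleen arrays were Galnt7 (r = 0.952), an enzyme of O-linked glycosylation, Gfpt1 (r = 0.948), the first enzyme of hexosamine synthesis, and Plekhg3 (r = 0.936). Within groups these values were 0.880, 0.874 and 0.821.

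**Figure D3:**
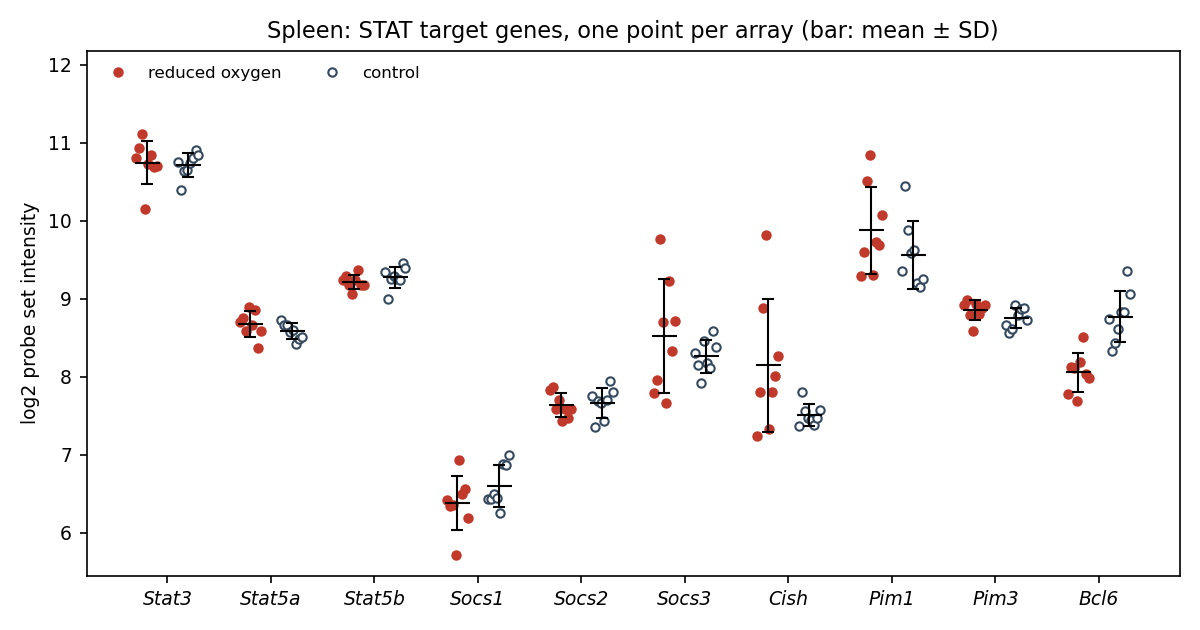
Log2 intensity (y axis) of the 10 genes in each spleen array, reduced oxygen at the left and control at the right of each gene, with the mean and SD. Bcl6 is lower in 7 of 8 reduced oxygen spleens than in any control, and Cish spans 7.25 to 9.82 under reduced oxygen against 7.37 to 7.80 in controls.

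In bone marrow Bcl6 read 8.43, 8.31, 8.20 and 8.49 in the reduced oxygen samples, against 8.74, 8.81 and 8.79 in the control samples. All 4 reduced oxygen samples lay below all 3 controls. With these few arrays the groups of 20.5% of all genes did not overlap. The change was -0.43 ± 0.077 (SE), or 0.743-fold (limma, adjusted p = 0.0142), and the adjusted p was 0.0545 without reduced oxygen replicate 2 and 0.0549 without control replicate 2. The dimmer probe set had a change of -0.21 (adjusted p = 0.395 over all probe sets). None of 9 B cell markers or of 10 neutrophil markers was called in bone marrow. The summed B cell level was 12.3 to 12.7 in reduced oxygen samples and 12.1 to 12.8 in controls, and the summed neutrophil level was 17.56 to 17.64 in reduced oxygen samples and 17.59 to 17.66 in controls.

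**Figure D4:**
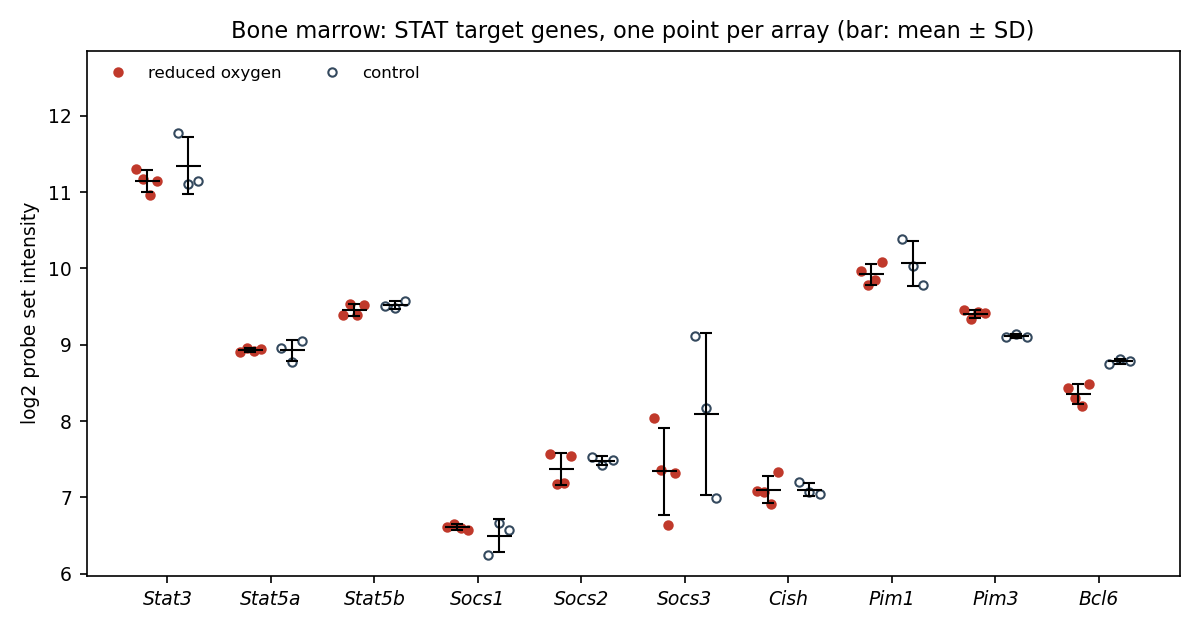
Log2 intensity (y axis) of the 10 genes in each bone marrow array, reduced oxygen (4 arrays) at the left and control (3 arrays) at the right of each gene, with the mean and SD. Pim3 (9.33 to 9.46 against 9.10 to 9.14) and Bcl6 (8.20 to 8.49 against 8.74 to 8.81) do not overlap between the groups, as for 20.5% of all genes.

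In liver Bcl6 differed between the groups in spread, while a change in its level was not called. Its lowest, median and highest values were 8.82, 9.10 and 9.69 in reduced oxygen livers, against 6.36, 8.46 and 10.01 in control livers. All 8 reduced oxygen livers lay inside the control range and above the control median. The means of 9.17 ± 0.31 in reduced oxygen and 8.42 ± 1.37 in control livers (SD, n = 8 each) gave a change of 0.75 ± 0.43 (SE, adjusted p = 0.300). The SD of the control livers was 4.42 times that of the reduced oxygen livers, and 0.0471% of all genes had a lower ratio of reduced oxygen to control SD. The difference between the liver and spleen responses of Bcl6 was 1.47 ± 0.45 (limma interaction, adjusted p = 0.0292), and the adjusted p was 0.0518 without liver control 3 and 0.0516 without liver control 6.

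Cish, the STAT5-induced inhibitor with paired palindromes at its start, shared this pattern of spread in liver. Its lowest, median and highest values were 6.10, 6.45 and 6.70 in reduced oxygen livers, against 6.38, 7.08 and 8.54 in control livers. All 8 reduced oxygen livers lay below the control median and 3 lay below every control. The means of 6.42 ± 0.20 in reduced oxygen and 7.12 ± 0.71 in control livers (SD, n = 8 each) gave a log2 change of -0.70 ± 0.23 (SE), which missed the threshold (limma, adjusted p = 0.0546). With the replicate number as a block the adjusted p was 0.0319, and without control replicates 2, 5 or 7 in turn it was 0.0292, 0.0454 and 0.0267. Only these 3 of 16 single omissions brought a call. Over all 16 the adjusted p ran from 0.0267 to 0.101 and the change from -0.80 to -0.50. Within the arrays numbered 1 to 4 the change was -0.90 (adjusted p = 0.195), and within those numbered 5 to 8 it was -0.50 (adjusted p = 0.0859). The SD of control livers was 3.56 times that of reduced oxygen livers, and 0.181% of genes had a lower ratio of reduced oxygen to control SD.

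Among the control livers Cish and Bcl6 ran opposite to each other. The 4 control livers lowest in Bcl6 (7.91 or less, with the other 4 at 9.005 or more) were also the 4 highest in Cish (7.19 or more, with the other 4 at 6.98 or less). Over the 16 livers, after each group's mean was subtracted, Pearson's r was -0.685 (permutation p = 0.0325, adjusted p = 0.195 over 36 gene pairs) and Spearman's rho was -0.738 (permutation p = 0.00859, adjusted p = 0.149). The relation did not pass the adjustment. Without the 2 livers farthest from the median in Cish, the only gene used to pick them, r was -0.633. It was -0.836 within the arrays numbered 1 to 4 and -0.749 within those numbered 5 to 8. It was -0.183 in reduced oxygen livers and -0.718 in control livers.

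In spleen Cish showed the reverse spread. It read 7.25, 7.80, 8.88, 9.82, 7.33, 7.80, 8.01 and 8.27 in reduced oxygen spleens 1 to 8, against 7.37, 7.48 and 7.80 as the lowest, median and highest of the control spleens. Of the reduced oxygen spleens 5 lay above every control and 2 below. The change was 0.63 ± 0.28 (SE, unadjusted p = 0.0358, limma adjusted p = 0.124). The SD was 0.85 in reduced oxygen and 0.14 in control spleens, a ratio of 6.18 that 0.0314% of genes exceeded. The 5 spleens with Cish above every control were those in which the summed neutrophil markers exceeded every control (15.1 to 16.1, with 12.9 to 14.4 in the other 3), and with the B cell marker level as a covariate the change of Cish was 0.081. The part of cell content in the result was not tested beyond these values. In bone marrow Cish read 7.09, 7.07, 6.91 and 7.34 in reduced oxygen samples, against 7.20, 7.07 and 7.04 in control samples, with a 95% interval of the change from -0.26 to 0.26.

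The Cish response in liver lay below that in spleen by 1.33 ± 0.35 on the log2 scale (limma interaction, adjusted p = 0.0103). With Pim3 and Bcl6 this made 3 of 9 genes called between liver and spleen, where 9.74% of all genes were called. Between liver and bone marrow 1 of 9 was called, Pim3, where 2.81% of all genes were. Between spleen and bone marrow 0 of 10 were called (limma, 0.272% of all genes), and 0 of 10 had an unadjusted p under 0.05. The interaction test shares its estimate of spread over all 6 groups, so the liver spread enters this comparison. For Bcl6 the SE was 0.58 here, against 0.14 in spleen and 0.077 in bone marrow tested alone. The absence of calls therefore does not show that the 2 tissues respond alike.

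Socs3, the inhibitor that Stat3 induces and that blocks interleukin 6 signalling, varied widely in all 3 tissues. In liver its lowest, median and highest values were 4.75, 6.33 and 9.33 under reduced oxygen, against 6.16, 7.25 and 8.26 in controls. Of the 8 reduced oxygen livers 7 lay below the control median, and replicate 3 was the highest of all 16 livers. The change was -0.53 ± 0.45 (adjusted p = 0.527), and it was -0.91 without reduced oxygen replicate 3 and -0.26 without reduced oxygen replicate 5. In bone marrow Socs3 read 8.03, 7.36, 6.64 and 7.32 under reduced oxygen, against 9.11, 8.17 and 7.00 in controls. The groups overlapped, with a change of -0.76 ± 0.47 (adjusted p = 0.369) that was -0.25 without control replicate 1 and -1.30 without control replicate 3. In spleen it spanned 7.66 to 9.77 with a median of 8.51 under reduced oxygen, against 7.93 to 8.59 with a median of 8.24 in controls. The change there was 0.26 ± 0.25 (adjusted p = 0.514), with an SD 3.43 times that of the controls, a ratio that 0.793% of genes exceeded. The 4 reduced oxygen spleens above every control in Socs3 were all among the 5 with the highest neutrophil markers.

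Socs2, the growth hormone-induced inhibitor that limits body growth, ranged in liver over 5.89, 8.41 and 10.14 (lowest, median, highest) under reduced oxygen, against 6.77, 8.17 and 9.63 in controls. The groups overlapped over most of this range, the change was 0.20 ± 0.54 (adjusted p = 0.876), and its 95% interval of -0.95 to 1.36 holds large changes in either direction. Socs2 read 7.57, 7.18, 7.19 and 7.54 in reduced oxygen bone marrow, against 7.53, 7.43 and 7.49 in control marrow (change -0.11 ± 0.11, adjusted p = 0.578). In spleen it spanned 7.44 to 7.87 under reduced oxygen, against 7.35 to 7.95 in controls, with a change of -0.036 ± 0.086 (adjusted p = 0.822). Socs1, induced mainly by interferon, was dim in liver at 4.29 ± 0.28 under reduced oxygen and 4.35 ± 0.24 in controls (SD, n = 8 each). Its changes were 0.12 ± 0.094 (adjusted p = 0.495) in bone marrow and -0.22 ± 0.14 (adjusted p = 0.309) in spleen.

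Stat3, which carries the interleukin 6 signal and represents the acute-phase arm, had values of 10.28, 10.86 and 11.47 (lowest, median, highest) in reduced oxygen livers, against 10.08, 10.46 and 10.63 in control livers. Of the reduced oxygen livers 5 lay above every control and 3 within the control range. The change of 0.42 ± 0.15 (SE) missed the threshold (limma, unadjusted p = 0.0121, adjusted p = 0.0839). The adjusted p was 0.0367 without reduced oxygen replicate 1 and 0.0328 without replicate 5. Only these 2 of 16 single omissions brought a call, and over all 16 the adjusted p reached 0.161. The change was 0.25 within the arrays numbered 1 to 4 (adjusted p = 0.573) and 0.60 within those numbered 5 to 8 (adjusted p = 0.0498). The 3 livers within the control range were replicates 1, 2 and 5, the 3 with the lowest summed neutrophil markers. That sum includes Lcn2, which is also listed as a Stat3 target. Whether neutrophils contribute to the Stat3 level was not tested. Stat3 read 11.30, 11.17, 10.95 and 11.14 in reduced oxygen bone marrow, against 11.77, 11.11 and 11.15 in control marrow, with a change of -0.20 ± 0.16 (adjusted p = 0.474). In spleen it spanned 10.15 to 11.11 under reduced oxygen, against 10.40 to 10.91 in controls, with a change of 0.029 ± 0.11 (adjusted p = 0.888).

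Stat5a and Stat5b, near-identical neighbouring genes that carry prolactin and growth hormone signals, showed small differences. In liver Stat5a spanned 7.33 to 8.53 under reduced oxygen, against 7.36 to 8.83 in controls, with a change of -0.30 ± 0.18 (adjusted p = 0.352). Stat5b spanned 8.63 to 9.10 under reduced oxygen, against 8.41 to 9.19 in controls, with a change of 0.042 ± 0.097 (adjusted p = 0.855, 95% interval -0.16 to 0.25). Both overlapped broadly. In bone marrow their changes were 0.0055 ± 0.071 and -0.064 ± 0.063 (adjusted p = 0.973 and 0.577), and in spleen 0.092 ± 0.072 and -0.060 ± 0.063 (adjusted p = 0.409 and 0.557). Because the transcripts are so alike, probes of one may also read the other.

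Over all 26 probe sets the calls stayed with Pim3 and Bcl6. They were 2 in liver (both Pim3), against 7.5% of all probe sets, 3 in bone marrow (Pim3 by 2 and Bcl6 by 1), against 3.83%, and 2 in spleen (both Bcl6), against 14.6%.

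Some pairs of the 10 genes were correlated from spleen to spleen. After each group's mean was subtracted, 4 of 45 gene pairs, 3 positive and 1 negative, passed the adjustment by both Pearson and Spearman correlation over the 16 spleens, against 0 of 36 pairs in liver. No spleen pair that included Socs2, Socs3 or Stat5a passed by either. Cish and Pim1 had r = 0.845 (permutation p = 1e-05, the smallest these permutations can give, adjusted p = 0.00045) and rho = 0.756 (permutation p = 0.00112, adjusted p = 0.0252). Their r was 0.775 without the 2 spleens farthest from the median in Cish, picked by that gene alone. It was 0.984 in reduced oxygen and 0.805 in control spleens, and 0.878 and 0.606 within the arrays numbered 1 to 4 and 5 to 8. Reduced oxygen spleens 3 and 4 were the highest of the 16 in both genes, and spleen 4 was also the lowest in B cell markers.

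Bcl6 and Stat5b had r = 0.823 (permutation p = 0.00038, adjusted p = 0.00855) and rho = 0.700 (permutation p = 0.00445, adjusted p = 0.0499) over the 16 spleens. Without the 2 spleens farthest in Bcl6, picked without regard to Stat5b, r was 0.728. Within the arrays numbered 1 to 4 and 5 to 8 it was 0.729 and 0.971. Bcl6 and Stat3 had r = 0.661 (permutation p = 0.0041, adjusted p = 0.0231) and rho = 0.809 (permutation p = 0.00035, adjusted p = 0.0158). Their r was 0.583 without the 2 farthest in Bcl6, and 0.814 and 0.865 within the array sets. Socs1 and Pim1 ran opposite, with r = -0.724 (permutation p = 0.00198, adjusted p = 0.0153) and rho = -0.750 (permutation p = 0.00174, adjusted p = 0.0261). Without the 2 farthest in Socs1 r was -0.531, and within the array sets it was -0.617 and -0.929. Each of these relations is among arrays that also differ in cell content, whose part was not tested. In liver, Stat5a and Stat5b were the only pair to pass by Pearson's r alone (r = 0.889, permutation p = 3e-05, adjusted p = 0.00108), with rho = 0.756 (permutation p = 0.00231, adjusted p = 0.0832). Their r was 0.845 without the 2 livers farthest in Stat5a, and 0.907 and 0.903 within the array sets.

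**Figure D5:**
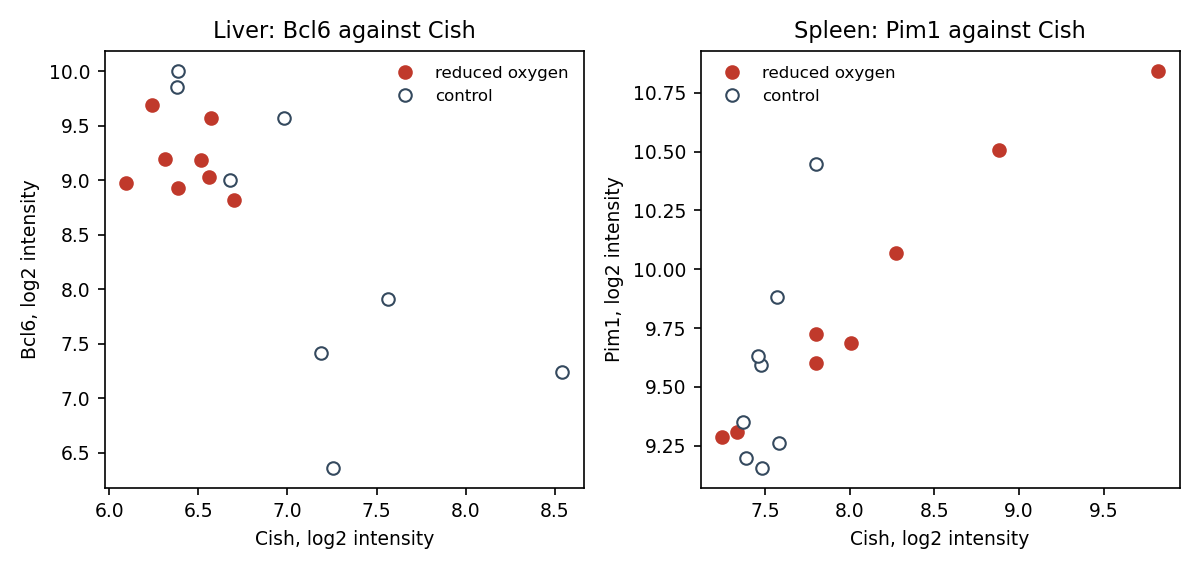
Log2 intensity of Bcl6 (y axis) against Cish (x axis) in the 16 livers, and of Pim1 (y axis) against Cish (x axis) in the 16 spleens, with 1 point per array coloured by group. The 4 control livers highest in Cish are the 4 lowest in Bcl6, and reduced oxygen spleens 3 and 4 are highest in both Cish and Pim1.

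The wider pathway was read from lists of its other genes, grouped by role. Their counts stand beside the shares of all genes called, which were 3.88% higher and 7.22% lower in liver, 2.76% higher and 4.92% lower in bone marrow, and 6.83% higher and 12.6% lower in spleen. Of 23 listed ligands of JAK-coupled receptors with a probe set, only 8 passed the dim-gene filter in each tissue, so most were not tested. Of those tested 0 of 8 were called by limma in liver and 0 of 8 in bone marrow. In spleen 1 of 8 was, Il7 (-0.76 ± 0.21, adjusted p = 0.0141), a growth factor of lymphocytes. Of the receptors 1 of 22 rose in liver, Il13ra1 (0.72 ± 0.19, adjusted p = 0.0211), which binds interleukin 13. In bone marrow 4 of 25 receptors rose and none fell, namely Il7r (0.85 ± 0.17, adjusted p = 0.0192), Lifr (0.41), Il2rb (0.29) and Ghr (0.32). The calls of Il2rb and Ghr were lost when any 1 of the 7 bone marrow arrays was left out, and those of Il7r and Lifr when 1 array was (reduced oxygen replicate 2 for Il7r, control replicate 2 for Lifr). In spleen 5 of 25 rose, among them Csf3r (1.12 ± 0.32, adjusted p = 0.0195), the receptor of the neutrophil growth factor, and 2 fell, among them Il21r (-0.65 ± 0.16, adjusted p = 0.00691). These spleen receptors stand beside the neutrophil and B cell marker shifts given above.

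Of the JAK kinases and other STAT genes 1 of 6 was called in liver, Stat2 (-0.84 ± 0.14, adjusted p = 0.000355), a mediator of interferon signals, and 0 of 7 in bone marrow. In spleen 3 of 7 fell: Tyk2 (-0.33), Stat6 (-0.32) and Stat2 (-0.26, adjusted p = 0.0459). The call of Stat2 in spleen was lost when any 1 of 10 arrays was left out and under 6 of 11 other alternatives, and that of Stat6 under 4 of 11, among them the B cell covariate for both. Of other inhibitors of the pathway 2 of 17 fell in liver, Socs4 (-0.42, adjusted p = 0.003) and Socs7 (-0.40, adjusted p = 0.0492), and 1 rose, Usp18 (0.97 ± 0.12, adjusted p = 1.14e-05), a brake on interferon receptors. The mean over the probe sets of Socs4 in liver gave -0.0018, and the call of Socs7 was lost when any 1 of 12 arrays was left out. In bone marrow 2 of 18 fell, Socs7 (-0.53) and Socs4 (-0.37), both no longer called without control replicate 2, and 1 rose, Ptpn22 (0.84), a phosphatase of lymphocytes. The mean over the probe sets of Socs4 in bone marrow gave 0.021. In spleen 5 of 18 fell, led by Socs7 (-0.72 ± 0.067, adjusted p = 1.55e-06), Socs5 (-0.64) and Pias3 (-0.44), an inhibitor of Stat3, and 1 rose, Ptpn22 (1.30).

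The list of other genes known as Stat3 targets, like the other lists, was chosen with earlier results of these data known. Its counts are therefore a description and not a test. Of its genes 10 of 28 rose in liver and none fell (median log2 change 0.47, against -0.034 for all genes). They included Mt2 (4.40), a metallothionein, Cebpd (2.26) and Cebpb (1.24), acute-phase transcription factors, and Fos (2.03), an immediate early gene. In bone marrow 3 of 22 rose, Mt2 (2.01), Fos (1.65) and Mcl1 (0.32), and 1 fell, Cebpd (-0.59), with a median of -0.051. The call of Mcl1 was lost when any 1 of 5 arrays was left out, and the mean over its probe sets gave 0.011. In spleen 6 of 21 rose, among them Fos (2.16), Cebpd (1.62), Cebpb (1.27) and Hp (1.73), and 2 fell, with a median of 0.40. Hp, haptoglobin, is also stored by neutrophils. These counts stand beside the neutrophil markers called higher, 3 of 8 in liver and 4 of 10 in spleen (median 1.02), whose part was not tested. Lcn2, called higher in liver (3.48, adjusted p = 0.0365), is in both lists.

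Other targets of Stat5 and growth hormone had 5 higher and 3 lower of 21 in liver, with a median of -0.05. The higher ones included Gadd45g (3.52) and Cdkn1a (2.92), inhibitors of cell growth, and Tfrc (2.22), the transferrin receptor, and the lower ones included Irf1 (-1.23), an interferon-linked factor. In bone marrow 2 of 14 rose, Cdkn1a (0.87) and Ghr (0.32), and Irf1 fell (-0.40). There the call of Ghr was lost when any 1 of the 7 arrays was left out and that of Irf1 when any 1 of 5 was. In spleen 2 of 16 rose, Cdkn1a (1.25) and Gadd45g (0.60), and 2 fell, Ccnd1 (-0.60) and Irf1 (-0.67). Cdkn1a was called higher in each tissue, also with each array left out in turn. Of the partners and relatives of Bcl6 and the Pim kinases, 1 of 9 was called in liver, Hdac3 (-0.20), against 11.1% of all genes, and its call was lost when any 1 of 10 arrays was left out. In bone marrow 1 of 12 was called, Zbtb16 (1.67), a repressor related to Bcl6, but not without control replicate 2 or without control replicate 3. In spleen Zbtb16 rose (1.27) and 2 of 12 fell, Pim2 (-0.55 ± 0.084, adjusted p = 0.000192), the third Pim kinase, and Bcor (-0.44), a corepressor that Bcl6 recruits. Within the spleen arrays numbered 1 to 4 alone, where fewer genes were called in all, the calls of Il7, Il21r, Csf3r, Tyk2, Stat6, Stat2, Pias3, Hp, Ccnd1 and Irf1 were lost with the direction kept. With the B cell covariate those of Il7 and Csf3r were lost, and within the arrays numbered 5 to 8 that of Zbtb16. Within the liver arrays numbered 1 to 4 the calls of Il13ra1, Socs4, Socs7 and Hdac3 were lost.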

How the data were processed

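Total RNA of 39 samples was hybridised to Affymetrix arrays. The deposited values are probe set intensities on a linear scale. Per the submitters' processing notes, RMA (background correction, normalization between arrays, summary of probes) and limma were used, with no version named. The vehicle, the genome build and any batch are not given in the sources used here. Samples were grouped by tissue and treatment from the titles.

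The log2 of each intensity was taken, with no pseudocount. The value table held 45101 probe sets, and the 34945 that had 1 symbol in the platform annotation and were not controls were used. Left out were the 64 control probe sets, as were 932 probe sets with several symbols and 9211 with none, both counted with controls included. The brightest probe set on average stood for its gene in that tissue. Dim genes, under percentile 30 of these averages, were dropped, and 12735 remained. A two-sided limma test (version 3.58.1, functions lmFit and eBayes) compared the groups within each tissue, run under R 4.3.3 and data.table (version 1.17.8). The threshold was an adjusted p of 0.05 by Benjamini-Hochberg over every tested gene, and limma supplied all adjusted p-values of genes. Tissue differences in response were tested as interactions in a joint limma fit of the 39 arrays. The procedure was tested on simulated data. Correlations between genes were tested by 100000 permutations of arrays within groups. The number of arrays limits the precision.

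The 10 genes and the lists were chosen with earlier results of these data known. Named were the 10 genes, from each other list up to 4 called genes of smallest p per tissue, and the 3 genes most like each called member in liver and spleen. Groups share replicate numbers in the labels. In liver, samples of the same number deviated together (r = 0.166 to 0.535 across genes), which by the rule used pairs them. Livers of the same number also lie in the same array set, which was not removed from these correlations. In bone marrow (lowest r -0.027) and spleen (lowest r -0.48) the numbers did not pair. Alternatives covered the choice of probe set, the dim-gene filter, quantile normalization, the variance prior, the array set (numbers 1 to 4 against 5 to 8), the replicate block, array weights and each array left out, and 2 alternatives for spleen were chosen after seeing the data.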

Additional observations from a re-analysis of the deposited data

Results flagged for a closer look

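The responses of 3 genes differed between tissues by a limma interaction test. The Pim3 response in liver exceeded that in spleen by 1.91 and that in bone marrow by 1.72 on the log2 scale. The Bcl6 response differed by 1.47 between liver and spleen, with changes of 0.75 in liver and -0.71 in spleen. The change in liver missed the threshold when tested alone. The Cish response differed by -1.33, with changes of -0.70 in liver and 0.63 in spleen, neither of which passed the threshold alone.

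Single arrays stood apart in 2 of 50 groups of values checked, and chance gives about 1 in 20 such groups. Stat3 in reduced oxygen spleen 4 was the lowest of its group at 10.15, with the nearest at 10.69, a gap of 0.562 of the group's range. That array was also the lowest in B cell markers. Stat5b in control spleen 2 was the lowest of its group at 8.999, with the nearest at 9.24, a gap of 0.527 of the range.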

How the results depend on the processing

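The rise of Pim3 in liver and the fall of Bcl6 in spleen kept their direction and their call under every alternative run, with ranges of 1.48 to 2.16 and -0.83 to -0.57. For Bcl6 the highest adjusted p was close to the threshold (limma, 0.0496 within the arrays numbered 1 to 4). Counts moved more. In liver 1 gene of the group was called, but 2 with quantile normalization, with the array set as a term or with the replicate block (Cish joined), and 3 within the arrays numbered 5 to 8 (Pim1 and Stat3 joined). All genes called in liver numbered 1413, but 2668 with the array set, 759 within the arrays numbered 1 to 4, and 2385 with the replicate block. In spleen 461 genes instead of 2469 were called within the arrays numbered 1 to 4, and 2 of the group instead of 1 with B cell markers as a covariate (Pim3 joined at 0.20). Between liver and bone marrow, array weights gave 2 of the group and 925 genes, against 1 and 319. Between spleen and bone marrow 33 genes became 53 with the mean of probe sets, 51 without the dim-gene filter and 268 with array weights. Leaving out each array in turn gave 1 to 2 of the group in liver and in bone marrow, 409 to 909 genes in bone marrow (979 with all arrays), 172 to 416 between liver and bone marrow, and 9 to 52 between spleen and bone marrow.

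With the replicate block in bone marrow, where the numbers did not pair, Pim3 had an adjusted p of 0.0571 and Socs3 a change of -0.75 (adjusted p = 0.0330). The block changed no call of the group in spleen. Some changes turned direction, and none was called under the alternative that turned it. With the mean of probe sets these were Pim1 (0.024), Stat5a (-0.087) and Socs4 (0.021, called at -0.37 with the brightest probe set) in bone marrow and Socs2 (0.0045) and Stat5b (0.018) in spleen, and with the block Stat5a in bone marrow (-0.00035). Within the arrays numbered 1 to 4 these were Stat5b in liver (-0.15) and Socs2 in spleen (0.13), and within those numbered 5 to 8 Socs2 (-0.19) and Stat5a (0.017) in liver and Stat3 in spleen (-0.082). With the B cell covariate Socs1 (0.025), Socs2 (0.0092), Pim1 (-0.12) and Stat5b (0.014) turned in spleen. With quantile normalization the Stat5b difference between spleen and bone marrow was -0.030. With single arrays left out, these ranges held 0: in bone marrow Cish (-0.079 to 0.063), Pim1 (-0.28 to 0.014), Socs1 (-0.0074 to 0.20), Stat3 (-0.32 to 0.012) and Stat5a (-0.070 to 0.067), in liver Socs2 (-0.064 to 0.54) and Stat5b (-0.018 to 0.094), in spleen Socs2 (-0.081 to 0.0038) and Stat3 (-0.023 to 0.11). Of the differences between tissues, these were Socs3 from liver to bone marrow (-0.29 to 0.77), Socs2 from liver to spleen (-0.028 to 0.58) and Stat5b from spleen to bone marrow (-0.035 to 0.030). The cause of these shifts was not tested. Bone marrow, with 4 and 3 arrays, gives the least precise values.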
